A study of Homo sapiens with 9 samples.

Results

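Serum exosomes were added to acetaminophen-treated HuH-7 cells, and that library was set against the library of cells given acetaminophen alone. HuH-7 is an established human hepatocellular carcinoma line. The comparison rests on 2 of the 9 libraries of the study, 1 a side, and on 18237 tested genes of the 63677 gene identifiers in each file. The tested cells received 10 mM acetaminophen together with exosomes, dosed in the label as the yield of 1 ml of serum to a number of cells whose printed form is unclear. Their counterparts received 10 mM acetaminophen without exosomes. A second pair of libraries, exosomes without the drug and the untreated control, gives the corresponding values in undrugged cells; whether both exosome cultures received the same preparation is not stated. The other conditions (2 mM caffeine with or without 10 mM acetaminophen, 5 or 15 µM arsenic, and 5 µM arsenic plus 5 µM copper) are used here only for ranges. No source used here gives the exposure times, the donor species or origin of the serum, or whether the cultures were handled together.

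Acetaminophen is cleared in hepatocytes mainly by sulfation and glucuronidation, and a part is oxidised by cytochromes such as CYP2E1 to a reactive quinone imine that glutathione takes up. Exosomes are small vesicles released by cells through multivesicular bodies, and they carry proteins, membrane lipids and short RNAs into body fluids, blood serum included. Total RNA depleted of ribosomal RNA, as sequenced here, also holds many short nuclear and cytoplasmic RNAs. Among these, C/D box small nucleolar RNAs guide 2′-O-methylation of ribosomal RNA, H/ACA box ones guide pseudouridylation, and both are mostly cut from the introns of host genes.

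The short RNAs that set the 2 libraries apart are shown first, 5′ to 3′, as DNA letters of the GENCODE 29 transcripts, with positions on GRCh38. These C/D box RNAs were chosen because they were the lowest non-coding RNAs by the interval bound nearest to a ratio of 1 (SNORD7, SNORD8), because of an intron of a ribosomal protein gene as the site (SNORD100, within RPS12), or because of lower levels in both exosome comparisons (SNORD83A). Capitals mark the first TGATGA, the C box, and the last CTGA, the D box, the short motifs that core proteins of the particle bind.
SNORD7: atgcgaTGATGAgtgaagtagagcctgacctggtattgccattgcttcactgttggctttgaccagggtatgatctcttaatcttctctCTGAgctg
SNORD8: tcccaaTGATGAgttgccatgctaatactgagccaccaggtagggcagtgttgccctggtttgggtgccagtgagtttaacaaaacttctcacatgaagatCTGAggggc
SNORD100: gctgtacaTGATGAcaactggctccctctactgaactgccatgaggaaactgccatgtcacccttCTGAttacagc
SNORD83A: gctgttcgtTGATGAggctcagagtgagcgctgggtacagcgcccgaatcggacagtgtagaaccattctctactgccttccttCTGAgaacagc
All 4 hold both boxes. SNORD7 lies at chr17:35573657-35573753 on the plus strand. SNORD8 (chr14:21397292-21397401) lies on the minus strand within the chromatin remodeller gene CHD8. SNORD100 lies at chr6:132816802-132816877 on the plus strand and SNORD83A at chr22:39315213-39315307 on the minus strand.

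Next to them stands the Y RNA RNY1 (chr7:148987136-148987248, minus strand), shown as 1 of the 3 Y RNAs that were apart lower, with capitals on its first 11 bases. Y RNAs bind the Ro60 protein, and their fragments are a common cargo of serum vesicles.
RNY1: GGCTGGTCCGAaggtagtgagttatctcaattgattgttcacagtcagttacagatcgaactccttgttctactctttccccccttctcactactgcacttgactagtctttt

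Both libraries were shallow, and they differed in make-up. Counts on genes numbered 658725 with exosomes added and 1271896 with acetaminophen alone (3024317 with exosomes alone and 951816 in the control). Levels are given in CPM, counts scaled to a common depth with TMM factors. A gene at 3 counts, the limit that a count of 0 allows, had 3.82 CPM in acetaminophen with exosomes and 2.11 CPM in acetaminophen alone. Entries counted as without a unique alignment made up 53.3% of all counted entries with exosomes added and 23.0% with acetaminophen alone (39.4% with exosomes alone, 46.8% in the control). Whether a read aligned at several places was entered once is not stated. Ambiguous entries made up 2.29% and 9.25%. Small nucleolar RNA genes took 3.48% of the gene counts with exosomes added and 11.5% with acetaminophen alone. With 1 library a side there is no replicate check, and no p-value is given. A gene is called apart where its ratio was at least 2 in either direction and the exact 95% counting interval of the ratio excluded 1. These intervals cover counting error only, and the reads carry no molecular tags.

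Of the 18237 genes, 3502 were apart (19.2%), with 1855 higher (10.2%) and 1647 lower (9.03%) in acetaminophen with exosomes. Protein-coding genes gave 1456 higher and 1475 lower of 13906. The higher genes lay further out: 472 were at least 8 times higher against 80 at least 8 times lower, and 56 were at least 32 times higher against 5 lower. The median log2 ratio of all tested genes was 0, with quartiles of -0.76 and 1.07. The log2 ratio was linked to gene make-up. Over the genes with at least 20 counts in the pair, cut into 5 equal classes, its median ran from -0.81 in the class lowest in GC content to 0.73 in the highest, and from 0.39 in the shortest class to -0.48 in the longest. Acetaminophen over control uses the same acetaminophen library. There the median ran from 1.08 in the class lowest in GC content to -0.89 in the highest. From the shortest to the longest class it ran from -0.58 to 0.73. With both trends taken out of acetaminophen with exosomes over acetaminophen, 1398 genes were higher (7.88%) and 798 lower (4.5%) of 17741. The share of higher genes among those apart was then 63.7% in place of 52.97%. The part of GC content, length and unplaced reads in any single difference was not tested. Values after this removal are called trend-removed log2 ratios, and for the genes described they are given where they differ from the log2 ratio by more than 1.5-fold. The fits took in the described genes with at least 20 counts in the pair, short RNAs included. Trend-removed values are therefore not an independent check on those genes.

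**Figure D1:**
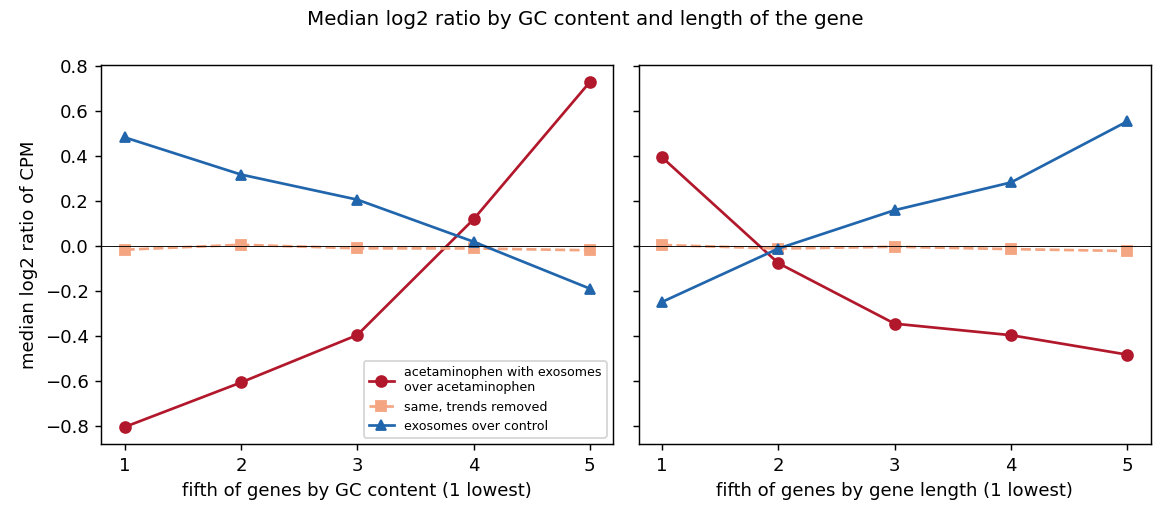
Median log2 ratio of CPM (y axis) in 5 equal classes of the genes with at least 20 counts in the pair, by GC content (left) and by length (right), for acetaminophen with exosomes over acetaminophen, for the same ratios with both trends removed, and for exosomes over control. In acetaminophen with exosomes over acetaminophen the median runs from -0.81 to 0.73 with GC content, and in exosomes over control from 0.48 to -0.19.

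Ribosomal protein genes were higher as a group. Of 78 tested, 60 were apart higher, 0 were apart lower and 18 were not apart, with a median log2 ratio of 1.91 beside 0 over all tested genes. Their summed level was 46638 CPM with exosomes added and 15076 CPM with acetaminophen alone (ratio 3.09, interval 3.04 to 3.15). It was 38309 CPM with exosomes alone and 53234 CPM in the control. The acetaminophen library was thus the lowest of the 9, and the library with exosomes added lay within the range of 17976 to 53234 CPM of the other 7. The trend-removed median was 1.78, with 55 higher and 2 lower.

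RPS19, a protein of the small subunit mutated in Diamond-Blackfan anaemia, had 1398 CPM with exosomes added and 26.0 CPM with acetaminophen alone (ratio 53.8, interval 38.8 to 76.9; 361 CPM with exosomes alone and 729 CPM in the control). RPS9 had 504 and 14.7 CPM (ratio 34.2, interval 22.0 to 55.8), and RPS27 had 755 and 26.7 CPM (ratio 28.3, interval 20.4 to 40.4). RPS28 and RPL37A were 36.8 and 15.3 times higher. For each of these 5 genes the acetaminophen library stood below the other 3 libraries of the exosome comparisons. RPS10 had 41 counts with exosomes added and 1 with acetaminophen alone, so its ratio of 74.3 has an interval of 12.6 to 3005. On the log2 scale RPS27 stood at 4.80 (trend-removed 4.07) and RPS28 at 5.06 (trend-removed 3.96). The genes not apart included RPS14 (log2 ratio -0.36), RPS29 (-0.56, trend-removed 0.08), RPL5 (-0.18) and RPL13A (-0.16). Ribosomal protein genes have many processed copies in the genome, so a value for any 1 gene of the family is uncertain: the 116 tested pseudogenes of the family summed to 865 CPM with exosomes added and 168 CPM with acetaminophen alone.

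Ribosomal protein messages begin with a run of pyrimidines that links their translation to the mTOR pathway. The bases around the annotated start sites of 5 of the higher genes are shown, 20 on each side, from RefSeq (GRCh38.p14), with the first CTTTC in capitals; RPS28 has no such match.
RPS9: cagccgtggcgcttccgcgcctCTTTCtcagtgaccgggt
RPS27: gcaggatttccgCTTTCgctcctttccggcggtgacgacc
RPS10: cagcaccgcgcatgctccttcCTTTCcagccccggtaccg
RPL37A: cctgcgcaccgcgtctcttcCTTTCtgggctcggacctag
RPS28: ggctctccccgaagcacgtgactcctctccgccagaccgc
On the sense strand, CTTTC stood in 46.2% of 78 start windows of 63 ribosomal protein genes and in 5.64% of 35116 windows of all genes; its reverse complement GAAAG stood in 2.56% and 4.30%. The 35 ribosomal protein genes with the motif had a median log2 ratio of 1.85 (-0.36 to 5.73), and the 28 without it 1.79 (-0.56 to 5.06). The presence of these letters therefore did not separate the members by their ratio.

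Nuclear genes of the respiratory chain had more members higher than lower, beside 10.2% higher and 9.03% lower over all tested genes. Of 69 for the chain and the ATP synthase, 36 were apart higher and 5 lower (median 1.16; trend-removed 0.87, with 30 higher and 7 lower). ATP5MC2, a subunit of the ATP synthase c-ring, had 168 CPM with exosomes added and 7.02 CPM with acetaminophen alone (102 CPM with exosomes alone, 159 CPM in the control; ratio 23.9, interval 12.6 to 51.0). The cytochrome c oxidase subunit NDUFA4 had 458 and 39.3 CPM (ratio 11.6, interval 8.77 to 15.7). ROMO1, a small inner-membrane protein that is not a member of this list, had 216 and 4.91 CPM (ratio 44.0, interval 20.9 to 111). These 3 genes had more than 10-fold higher levels with exosomes added. The log2 ratio of ROMO1 was 5.34 and its trend-removed value 3.56. In the other direction, UQCRB of complex III had 97.9 and 387 CPM (ratio 0.253, interval 0.196 to 0.321; log2 -1.98, trend-removed -1.12), and the large complex I subunit NDUFS1 had 86.5 and 260 CPM (ratio 0.333, interval 0.253 to 0.432).

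Of the 15 messenger and ribosomal RNAs of the mitochondrial genome, 3 were apart higher, 0 lower and 12 not apart (median 0.70, trend-removed 0.41). They were the small ribosomal RNA MT-RNR1, at 9675 CPM with exosomes added and 1657 CPM with acetaminophen alone (ratio 5.84, interval 5.58 to 6.12), MT-ATP8 (ratio 4.43; log2 2.07, trend-removed 2.74) and MT-ND3 (ratio 2.11). The large ribosomal RNA MT-RNR2 had 11141 and 7539 CPM and was not apart. All tested genes gave 10.2% higher and 9.03% lower. Of 22 mitochondrial transfer RNAs, 14 were apart higher and 0 lower (median 1.24, trend-removed 2.56), among them MT-TS2 at 1485 and 182 CPM (ratio 8.14, interval 7.11 to 9.35; log2 3.02, trend-removed 4.17). Counts on the mitochondrial genome took 3.21% of gene counts with exosomes added, 1.45% with acetaminophen alone, 2.57% with exosomes alone and 2.28% in the control.

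Replication-dependent histone genes, whose messages lack a poly(A) tail, had 16 of 26 members apart higher and 0 lower (median 1.54, or 1.42 with absent genes at 3 counts; trend-removed 0.88, with 12 higher and 3 lower). The shares over all tested genes were 10.2% higher and 9.03% lower. The linker histone HIST1H1C had 749 CPM with exosomes added and 51.9 CPM with acetaminophen alone (638 CPM with exosomes alone, 995 CPM in the control; ratio 14.4, interval 11.3 to 18.6). HIST1H2BD had 266 and 26.7 CPM (ratio 9.97, interval 7.03 to 14.5). Trend-removed log2 ratios were 2.16 for HIST1H1C and 2.52 for HIST1H2BD, against 3.84 and 3.30 before removal. Only 31 of the 62 histone genes of the list could be matched to an identifier, and the family has near-identical members.

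Of 52 lists and classes with at least 3 tested genes, the median was at least 1 in 10, at most -1 in 3 and between in 39. With absent genes set to 3 counts, 5 of the 10 still had a median of at least 1.

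**Figure D2:**
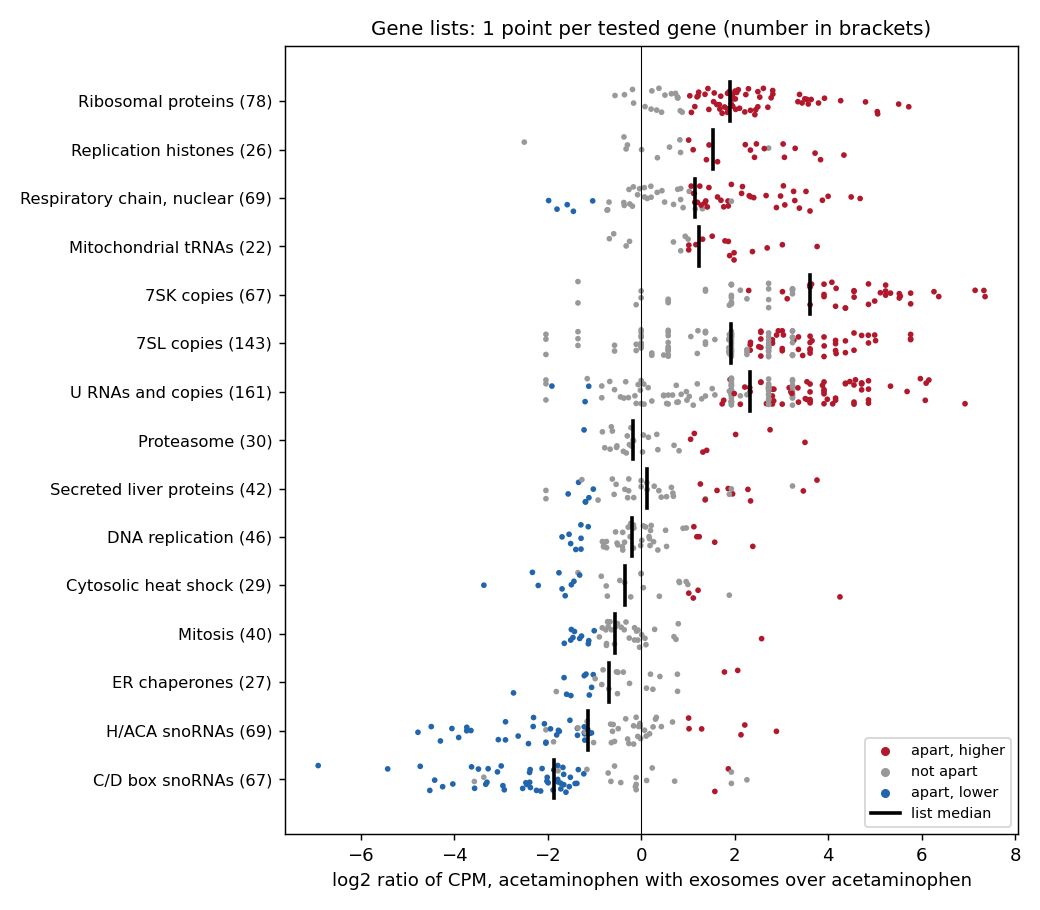
Log2 ratio of CPM, acetaminophen with exosomes over acetaminophen (x axis), for each tested gene of 15 lists; points are genes, coloured by whether they were apart, and the black bars are list medians. Ribosomal proteins, histones, the respiratory chain and mitochondrial tRNAs lie to the right, C/D and H/ACA small nucleolar RNAs to the left, and 1 copy of the 7SK RNA is not drawn.

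The tested C/D box small nucleolar RNAs were lower as a group. Of 246 C/D box identifiers, 155 had no counts in any library and 168 had none in the pair. Of 67 tested, 47 were apart lower and 2 higher (median -1.87; trend-removed -1.04, with 33 lower and 5 higher). H/ACA box RNAs had 32 of 69 lower and 6 higher (median -1.14; trend-removed -0.77, with 26 lower and 7 higher), and the Cajal body RNAs, which guide modification of spliceosomal RNAs, had 9 of 19 lower and 3 higher (median -1.37). The summed C/D level was 18019 CPM with exosomes added and 73107 CPM with acetaminophen alone (ratio 0.246, interval 0.242 to 0.251), beside 21592 CPM with exosomes alone and 28353 CPM in the control. Over the other 7 libraries the summed C/D level ran from 21592 to 298518 CPM, the top value at 5 µM arsenic. The library with exosomes added was the lowest of the 9 for both main classes.

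SNORD7, which guides methylation of the U6 small nuclear RNA, had 22.9 CPM with exosomes added and 2807 CPM with acetaminophen alone, from 18 and 3999 counts (ratio 0.00816, interval 0.00483 to 0.0129). It had 58.2 CPM with exosomes alone and 32.8 CPM in the control, so the acetaminophen library was the high one. SNORD8 and SNORD9, both within CHD8, had 95.4 and 26.7 CPM with exosomes added and 2201 and 515 CPM with acetaminophen alone. Their ratios were 0.0433 (interval 0.0340 to 0.0545) and 0.0518 (interval 0.0319 to 0.0798), and CHD8 itself had 102 and 116 CPM. SNORD111B and SNORD90 had ratios of 0.0369 and 0.0605. SNORD111 had 0 counts with exosomes added and 27 with acetaminophen alone. With the 0 set to 3 counts its ratio was 0.201, which leaves out the counting error of the 27. Removal of the trends left SNORD7 at a log2 ratio of -6.10 in place of -6.91, SNORD9 at -3.52 in place of -4.25, SNORD111B at -3.47 in place of -4.73, SNORD90 at -2.88 in place of -4.03 and SNORD111 at -4.26 in place of -5.42. In the other direction SNORD17, one of 2 C/D members apart higher, had 1379 and 462 CPM, and SNORA55 had 139 and 18.2 CPM.

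Small nucleolar RNAs mostly had lower ratios than the genes that hold them. A same-strand tested host gene was found in the GENCODE 29 annotation for 146 of 155 tested small nucleolar and Cajal body RNAs, in 121 hosts. The small RNAs had a median log2 ratio of -1.57, and their hosts -0.29. In 114 of 146 cases the small RNA had a lower log2 ratio than its host (median difference over all cases -1.27). For C/D box RNAs this held in 55 of 61 cases (median difference -1.95). In 13 cases the small RNA was apart lower while its host was apart higher. Members of one host share its transcript, so these cases are not independent.

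In RPS12, SNORD100 had 1853 CPM with exosomes added and 5836 CPM with acetaminophen alone (ratio 0.317, interval 0.30 to 0.336), while RPS12 had 766 and 54.7 CPM (ratio 14, interval 11 to 17.9). In RPS3, SNORD15B had 156 and 1939 CPM (ratio 0.0807, interval 0.0668 to 0.0967), while RPS3 had 787 and 266 CPM (ratio 2.96, interval 2.60 to 3.37). SNORD100 and SNORD15B had lower levels with exosomes added than with acetaminophen alone, and their hosts had higher levels. With the trends removed SNORD100 (log2 ratio -0.96) was no longer apart and RPS12 had 2.82 in place of 3.79. In the control SNORD100 and SNORD15B stood at 1843 and 261 CPM, and RPS12 and RPS3 at 874 and 984 CPM. With exosomes alone SNORD100 and SNORD15B had 2073 and 206 CPM, and RPS12 and RPS3 had 492 and 644 CPM. For each of these genes the acetaminophen library stood outside the libraries with exosomes added, exosomes alone and control. Among long non-coding hosts, SNHG1 had 3367 and 22108 CPM (ratio 0.152, interval 0.146 to 0.158) and GAS5 had 1223 and 4245 CPM (ratio 0.288, interval 0.269 to 0.309), but SNHG3 had 2306 and 470 CPM (ratio 4.91, interval 4.49 to 5.37).

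**Figure D3:**
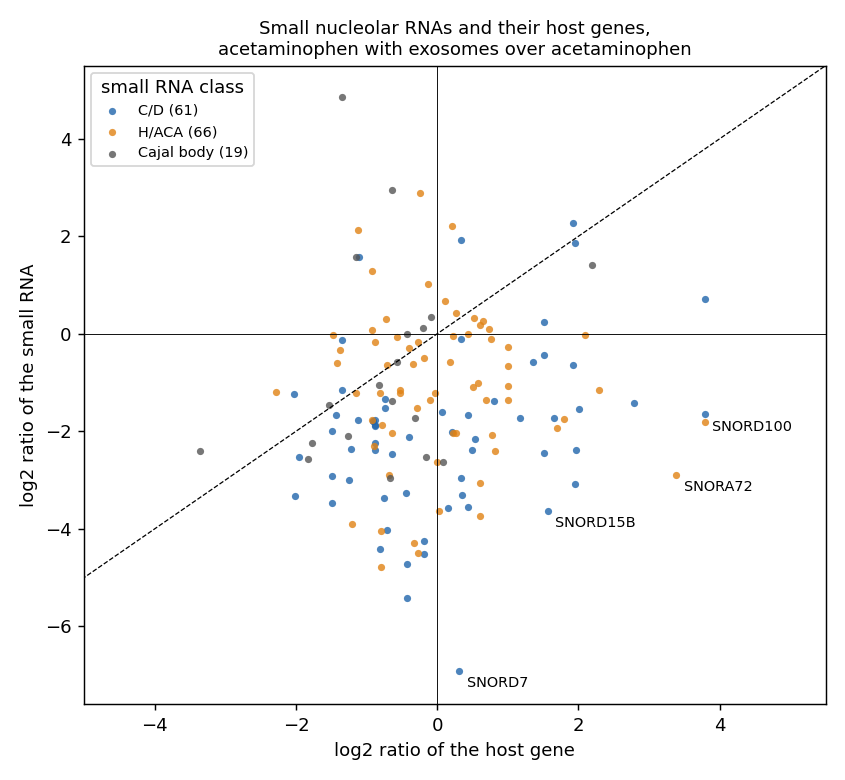
Log2 ratio, acetaminophen with exosomes over acetaminophen, of each small nucleolar or Cajal body RNA (y axis) against that of its host gene (x axis), coloured by class; the dashed line marks equal ratios. Of 146 points 114 lie below the line, and SNORD100, SNORD15B and SNORA72 lie where the small RNA is lower and the host higher.

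Other short RNAs split by kind, beside 10.2% higher and 9.03% lower over all tested genes. Of 14 Y RNAs and copies, 3 were lower, 2 higher and 9 not apart (median -0.11, trend-removed 0.92). The lower ones were RNY3, RNY1 and RNY4: RNY3 had 1620.3 CPM with exosomes added and 10338 CPM with acetaminophen alone (ratio 0.157, interval 0.148 to 0.166), RNY1 920 and 3745 CPM (ratio 0.246, interval 0.227 to 0.265), and RNY4 977 and 3187 CPM (ratio 0.306, interval 0.284 to 0.331). The control had 2701 CPM of RNY3, 1172 CPM of RNY1 and 1389.5 CPM of RNY4. Trend-removed log2 ratios were -1.83 for RNY3, -1.23 for RNY1 and -0.72 for RNY4, which was then no longer apart. RNU5A-1, a U5 small nuclear RNA of the spliceosome, was higher, at 3515 and 146 CPM (ratio 24.1, interval 20.9 to 27.9; log2 4.59, trend-removed 5.48), with 1117 CPM with exosomes alone and 1672 CPM in the control. RMRP, the RNA of the RNase MRP particle, had 20619 and 2015 CPM (ratio 10.2, interval 9.83 to 10.6; log2 3.35, trend-removed 2.22), and VTRNA2-1 had 2018 and 433 CPM (ratio 4.66, interval 4.24 to 5.12).

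Copies of the 7SK RNA summed to 928 CPM with exosomes added and 24.6 CPM with acetaminophen alone (ratio 37.8, interval 26.9 to 54.7), with 39 of 68 apart higher and 0 lower. RN7SKP80, RN7SKP211 and RN7SKP102 had 58, 57 and 50 counts with exosomes added and 0 with acetaminophen alone. With the acetaminophen library set to 3 counts they were 35.0, 34.4 and 30.2 times higher. These values leave out the counting error of the library with exosomes added. Copies of the 7SL RNA summed to 1384 and 156 CPM (ratio 8.88, interval 7.68 to 10.3), with 47 of 143 higher and 0 lower, and spliceosomal U RNAs and their copies to 38425 and 27676 CPM (ratio 1.39, interval 1.37 to 1.41), with 63 of 161 higher and 3 lower. The lists' medians of 3.61, 1.93 and 2.33 drop to 1.87, 0.86 and 0.86 with absent genes at 3 counts. Reads of such copies are hard to place, and the share of entries without a unique alignment differed between the libraries as given above.

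Among the other protein-coding genes that were highest by the interval, TMSB10, which binds actin monomers, had 1793 CPM with exosomes added and 82.1 CPM with acetaminophen alone (856 CPM with exosomes alone, 1473 CPM in the control; ratio 21.8, interval 18.1 to 26.6). The histidine phosphatase gene PHPT1 had 114 CPM with exosomes added, against 1.40 CPM from 2 counts with acetaminophen alone (ratio 81.5, interval 21.9 to 684). ANKRD30BL had 49 counts with exosomes added and 1 with acetaminophen alone (ratio 88.8, interval 15.2 to 3577). The trends taken out, TMSB10 had a log2 ratio of 3.33 in place of 4.44, PHPT1 4.28 in place of 5.95 and ANKRD30BL 6.60 in place of 5.77. All 12 protein-coding genes highest by the interval were also apart higher with the trends removed.

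The 12 lowest were CALM2, DEPDC1B, OSTF1, ADH5, TMEM87A, OTULINL, DHX40, SNAP23, RNF14, ERO1A, HSF2 and RPL39L. CALM2, a calmodulin gene, had 123 CPM with exosomes added and 684 CPM with acetaminophen alone (ratio 0.180, interval 0.145 to 0.222), beside 183 CPM with exosomes alone and 150 CPM in the control. ADH5, which reduces S-nitrosoglutathione, had 85.2 and 457 CPM (ratio 0.186, interval 0.143 to 0.240), beside 159 and 154 CPM. The SNARE gene SNAP23 had 19.1 and 128 CPM (ratio 0.149, interval 0.0815 to 0.251), and OSTF1 had 42.0 and 258 CPM (ratio 0.163, interval 0.110 to 0.233). In these 4 genes the acetaminophen library was the highest of the 4 libraries. All 12 stayed apart lower with the trends removed, CALM2 at a log2 ratio of -1.57 in place of -2.47, ADH5 at -1.81 in place of -2.42 and SNAP23 at -2.12 in place of -2.72. RPL39L has the near-identical paralogue RPL39, which makes its value uncertain.

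**Figure D4:**
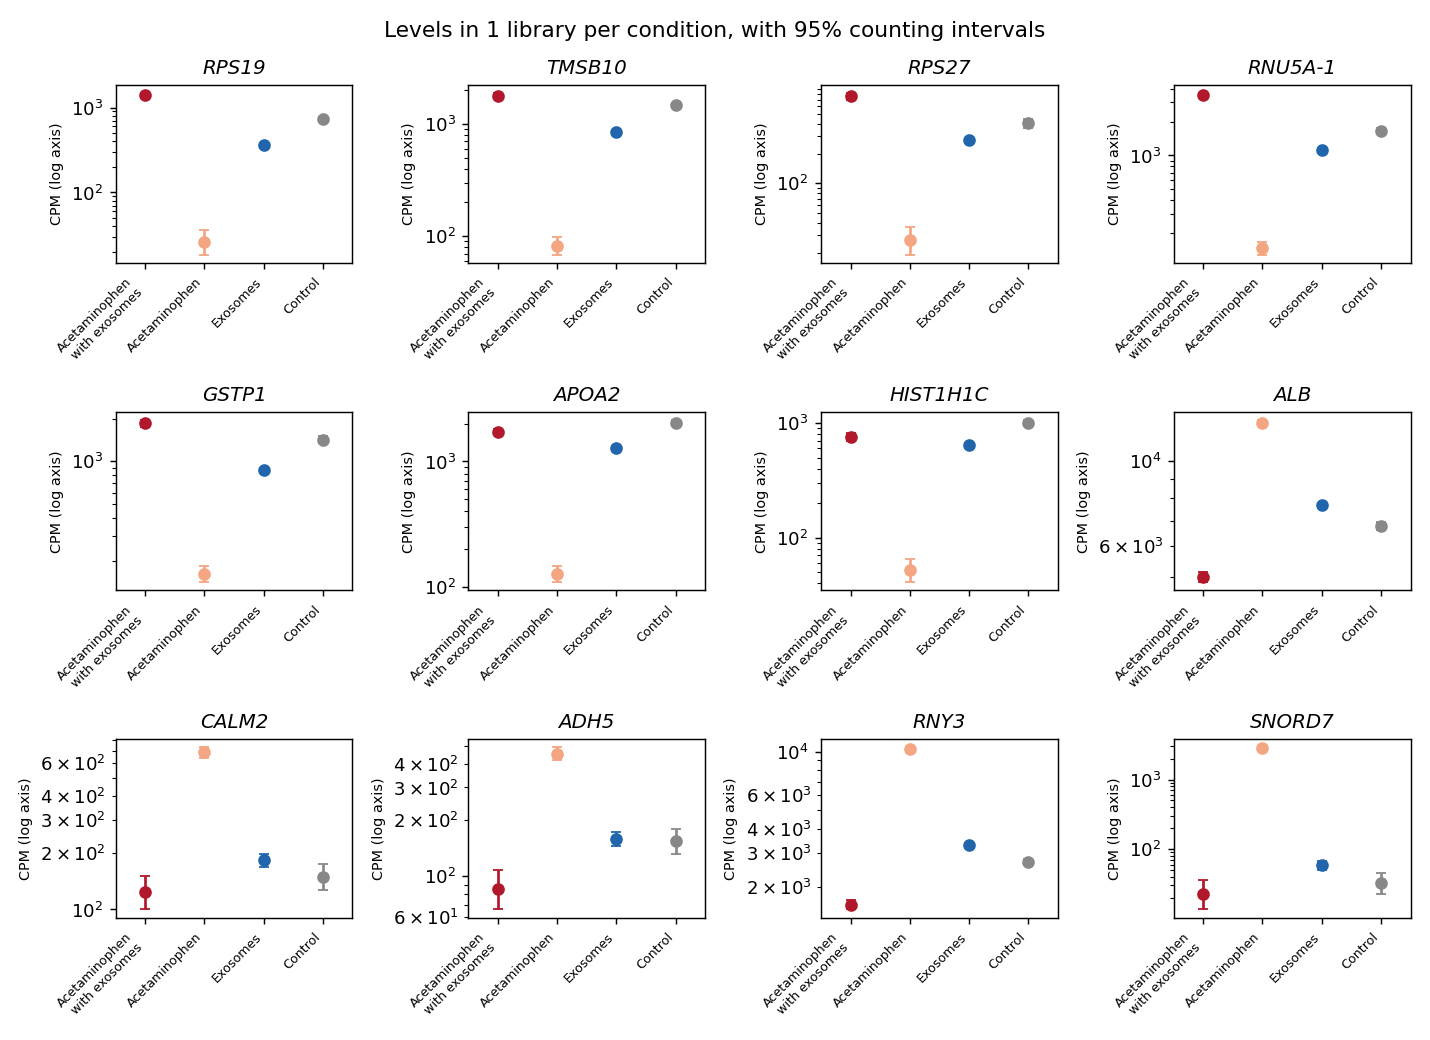
CPM (log axis, scale set for each gene) of 12 named genes in 1 library per condition, acetaminophen with exosomes, acetaminophen, exosomes and control; bars are exact 95% counting intervals. For RPS19, RNU5A-1, CALM2, ADH5 and SNORD7 the acetaminophen library stands outside the other 3, at 26.0, 146, 684, 457 and 2807 CPM.

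Genes of acetaminophen handling gave 4 apart higher and 4 lower of 33 tested (median -0.03, trend-removed -0.01). Both shares were near those over all tested genes, 10.2% higher and 9.03% lower. GSTP1, a glutathione transferase, had 1852 CPM with exosomes added and 161 CPM with acetaminophen alone (864 CPM with exosomes alone, 1424 CPM in the control; ratio 11.5, interval 9.97 to 13.2), and MGST2 had 63.6 and 11.2 CPM (ratio 5.66, interval 3.17 to 10.7). The sulfotransferase gene SULT2A1 had 3.82 and 26.0 CPM (ratio 0.147, interval 0.0290 to 0.464) and the efflux pump gene ABCC4 10.2 and 35.8 CPM (ratio 0.284, interval 0.116 to 0.603). GSTP1 had a log2 ratio of 3.52 (trend-removed 2.32) and ABCC4 -1.77 (trend-removed -1.13). CYP2E1, CYP1A2 and CYP3A4 had 0 counts in both libraries, so no difference in them was detectable at this depth.

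Of 35 genes of the NRF2 and glutathione list, 8 were higher and 3 lower (median 0.05). The share lower was near the 9.03% over all tested genes, of which 10.2% were higher. The 3 lower genes were the glutamate-cysteine ligase subunits GCLC (30.5 CPM with exosomes added, 81.4 CPM with acetaminophen alone) and GCLM (39.4 and 83.5 CPM) and the thioredoxin reductase gene TXNRD1 (430 and 873 CPM). The higher ones included the peroxidase genes GPX1 (131 and 30.9 CPM) and GPX2 (77.6 and 26.0 CPM), TKT (284 and 70.2 CPM) and the ferritin light chain FTL (4758 and 1772 CPM). NQO1, HMOX1 (log2 0.67, trend-removed -0.08) and NFE2L2 were not apart. With the trends removed, 5 were higher and 2 lower, and GCLC (-0.81), GCLM (-0.21), TXNRD1 (-0.42), GPX1 (0.28), GPX2 (0.68) and FTL (0.02) were within 2-fold.

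Both chaperone lists held more members lower than higher, while the ATF4 and CHOP targets of the integrated stress response had 4 higher and 2 lower of 27 (median 0.33; trend-removed -0.03, with 3 higher and 4 lower). Over all tested genes 10.2% were higher and 9.03% lower. Of 27 endoplasmic reticulum chaperones and folding enzymes, 9 were lower and 2 higher (median -0.69), but with the trends removed 3 were lower and 1 higher (median -0.37). HSP90B1 had 357 CPM with exosomes added and 1122 CPM with acetaminophen alone (ratio 0.319, interval 0.280 to 0.362), HSPA5 485 and 1011 CPM (ratio 0.479, interval 0.427 to 0.537), and the disulfide oxidase ERO1A 17.8 and 121 CPM (ratio 0.147, interval 0.0790 to 0.254). The trend-removed log2 ratios were -0.99 for HSP90B1, -0.52 for HSPA5 and -1.89 for ERO1A. Of 29 cytosolic heat shock genes, 9 were lower and 4 higher (median -0.35; trend-removed -0.19, with 6 lower and 2 higher). HSPA1B had 20.3 and 104 CPM (ratio 0.196, interval 0.109 to 0.329), HSP90AB1 838 and 2360 CPM (ratio 0.355, interval 0.326 to 0.386), and the transcription factor HSF2 3.82 and 43.5 CPM (ratio 0.0877, interval 0.0176 to 0.268). The small chaperone HSPB1 went the other way, at 48.3 and 2.11 CPM (ratio 23.0, interval 7.28 to 116), with 70.5 CPM with exosomes alone and 170 CPM in the control. HSPA1B had a trend-removed log2 ratio of -2.92 in place of -2.33, HSF2 -2.72 in place of -3.36 and HSPB1 2.72 in place of 4.25.

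The death and growth lists were mixed, beside 10.2% higher and 9.03% lower over all tested genes. Among 24 p53 targets 4 were higher and 4 lower (trend-removed 3 and 2): the cyclin-dependent kinase inhibitor CDKN1A had 36.9 CPM with exosomes added and 9.83 CPM with acetaminophen alone (ratio 3.75, interval 1.92 to 7.69), while exosomes alone and the control had 8.36 and 9.65 CPM. BAX, the pore-forming death effector, had 103 and 11.9 CPM (ratio 8.63, interval 5.07 to 15.5), and the ribonucleotide reductase subunit RRM2B had 14 and 51.9 CPM (ratio 0.269, interval 0.129 to 0.510). Among 28 apoptosis genes 2 were higher (BAX, BAD) and 5 lower, APAF1 among them, but with the trends removed 4 were higher and 1 lower. RRM2B (-0.98) and APAF1 (-0.41) were then within 2-fold, CDKN1A had 1.27 in place of 1.86, BAX 1.91 in place of 3.06 and BAD 2.90 in place of 4.86. Of 40 mitosis genes 1 was higher (PTTG1, log2 2.58, trend-removed 1.95) and 10 lower (median -0.56; trend-removed -0.09, with 1 higher and 3 lower). Of 46 DNA replication genes 5 were higher and 8 lower (median -0.19), and with the trends removed 3 were higher and 4 lower.

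Liver products were mixed too. Hepatocyte genes were present in both libraries, with ALB at 4987 CPM with exosomes added and 12611 CPM with acetaminophen alone, AFP at 3663 and 7769 CPM, and all 13 hepatocyte-line markers tested. These 13 had 2 apart higher (KRT18, TTR) and 4 lower (ALB, AFP, GPC3, KRT8), with a median of -0.54; the trend-removed log2 ratios of ALB, AFP and KRT18 were -0.81, -0.38 and 0.59, all within 2-fold. In bulk RNA, fewer cells of a kind and less RNA per cell cannot be told apart. Of 42 secreted plasma proteins 9 were higher and 6 lower (median 0.13; trend-removed -0.12, with 4 higher and 4 lower): APOA2 had 1730 and 127 CPM (ratio 13.6, interval 11.7 to 16) and the bikunin precursor AMBP 1353 and 267 CPM (ratio 5.07, interval 4.51 to 5.72), whereas ALB had a ratio of 0.395 (interval 0.382 to 0.409). Removal of the trends gave APOA2 a log2 ratio of 2.57 in place of 3.76 and AMBP 1.41 in place of 2.34. Fatty acid oxidation had 2 higher and 4 lower of 20, cholesterol synthesis 4 higher and 1 lower of 25, and glycolysis 2 higher and 0 lower of 25. With the trends removed these were 0 and 2, 2 and 0, and 2 and 0. Over all tested genes 10.2% were higher and 9.03% lower before removal.

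Since serum was the source of the vesicles, markers of blood cells were looked at. Of 14 erythroid markers 0 passed the filter, and their summed counts came to 0 CPM with exosomes added and 1.40 CPM with acetaminophen alone, with both alpha globin genes, HBA1 and HBA2, at 0 in both. The 13 platelet markers summed to 7.63 and 2.81 CPM, with PPBP and PF4 at 0 counts. The 20 leukocyte markers summed to 226 and 294 CPM (ratio 0.770, interval 0.642 to 0.919), mostly from LYZ, S100A9 and CSF3R, which the control held as well (164, 125 and 21.2 CPM). Of the 11 leukocyte markers tested, S100A9 (trend-removed log2 1.83 in place of 3.31) and CSF3R were higher, LYZ was lower and 8 were not apart, with a median of 1.93, or 0 with absent genes at 3 counts. Liver macrophage and endothelial markers summed to 0 and 10.2 CPM with exosomes added and to 1.40 and 14 CPM with acetaminophen alone. Of 32 genes of exosome formation 4 were higher and 2 lower (median 0.48, trend-removed 0.19), a share of higher members near the 10.2% over all genes. The tetraspanin genes CD63 (308 and 70.2 CPM), CD9 (29.3 and 5.62 CPM) and CD81 (99.2 and 30.9 CPM), whose proteins mark exosomes, were among the higher; with the trends removed CD81 (0.68) was within 2-fold and CD63 had 1.20 in place of 2.13.

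MicroRNA genes were close to the limit of these libraries. Of 73 tested, 7 were higher and 1 lower (median 0), beside 10.2% higher and 9.03% lower over all tested genes. MIR93 had 11 and 2 counts (ratio 9.97, interval 2.17 to 92.5), and MIR222 had 4 and 0 counts. The counts are of gene identifiers in a total RNA library and do not tell mature microRNAs from their precursors.

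Exosomes without the drug set fewer genes apart: 937 (5.14%), with 681 higher (3.73%) and 256 lower (1.4%) in exosomes over control. The difference between these counts was not tested, and the libraries differ in depth. No library is shared by the 2 exosome comparisons. Of the genes higher with exosomes added to acetaminophen, 17 were higher in exosomes over control as well, which is 0.916% of 1855 and 2.50% of 681, and 7 were lower in both, 0.425% of 1647 and 2.73% of 256. More genes were apart in opposite directions. These were 82 genes higher with the drug present and lower without it (4.42% of 1855, 32% of 256) and 180 genes lower with the drug present and higher without it (10.9% of 1647, 26.4% of 681). Ribosomal proteins had a median of 1.91 with the drug present and -0.50 without it, and histones 1.54 and -0.68, and the GC and length trends ran in opposite senses.

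Genes higher in both comparisons included RAPGEF4, an exchange factor activated by cyclic AMP, at 89.0 CPM with exosomes added and 26.7 CPM with acetaminophen alone (ratio 3.34, interval 2.22 to 5.09), and at 131 CPM with exosomes alone and 47.3 CPM in the control. DAZL had 17.8 and 1.40 CPM (14 and 2 counts; ratio 12.7, interval 2.91 to 115), then 17.9 and 5.79 CPM, and the lysosomal sulfamidase gene SGSH 26.7 and 8.42 CPM, then 17.6 and 7.72 CPM. The 5.8S ribosomal pseudogene RNA5-8SP2 had 78.9 and 0 CPM, then 14 and 1.93 CPM. Against acetaminophen alone set to 3 counts it was 37.4 times higher, with the error of its own counts left out. RAPGEF4 had a trend-removed log2 ratio of 2.33 in place of 1.72 and DAZL 4.10 in place of 3.30. Reads of the RNA5-8SP2 copy cannot be told apart from those of other 5.8S copies.

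Lower in both was SNORD83A, shown among the sequences above, at 633 CPM with exosomes added and 7491.5 CPM with acetaminophen alone (ratio 0.0845, interval 0.0771 to 0.0925), and at 214 CPM with exosomes alone and 1345 CPM in the control. SNORA3B had 182 and 765 CPM, then 188 and 376 CPM. The kinase gene PIM1 had 5.09 and 16.8 CPM, then 9.26 and 22.2 CPM. In these genes both libraries with exosomes lay below both libraries without them.

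**Figure D5:**
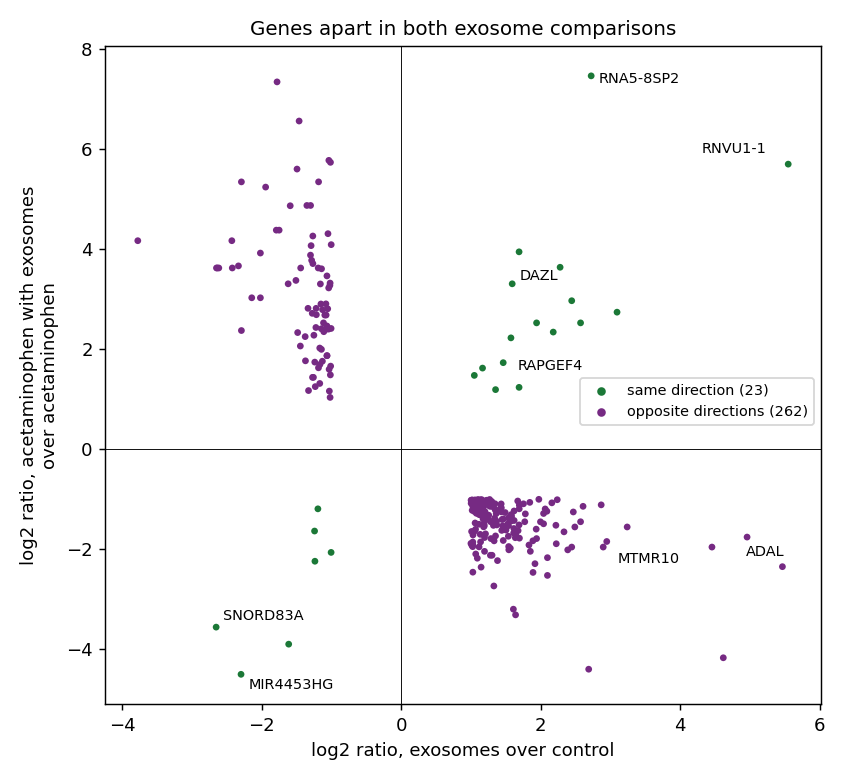
Log2 ratio of acetaminophen with exosomes over acetaminophen (y axis) against exosomes over control (x axis) for genes apart in both comparisons, with 1 gene not drawn; the legend gives 23 genes in the same direction and 262 in opposite directions. Most points lie in the upper left and lower right of the plot, where the directions differ.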

How the data were processed

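What the authors deposited are unnormalized counts of reads on Ensembl identifiers, with a file for each library. Per the labels' protocols, total RNA was depleted of ribosomal RNA and made into Ion Total RNA-Seq libraries. Per the submitters' processing notes, TopHat2 2.0.13, HTSeq 0.6.1 and GRCh37 were used; no source used here gives the annotation release, strand setting or read filters, and antisense and overlapping genes are therefore uncertain. HTSeq's summary lines (70.3% of all counted entries with exosomes added, 42.3% with acetaminophen alone) were left out of library sizes. Columns of other series numbered 0.

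Gene names, types, lengths, GC content, transcripts and hosts came from GENCODE 29 (GRCh38; 52526 of 63677 identifiers matched); no coordinates were converted. The tests took genes reaching 1 CPM in 2 or more of the 9 libraries, with TMM scaling (edgeR 4.0.16, R 4.3.3; DESeq2 1.42.0 as an alternative). Ratios have exact conditional binomial (Clopper-Pearson) intervals, and log2 ratios use 0.5 prior counts scaled to depth. GC and length trends were lowess fits (span 0.3, genes with at least 20 counts in the pair). Python 3.11.15, scipy 1.17.1 and statsmodels 0.14.6 were used, and the ratio step was tested on simulated data.

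The genes, the 44 lists (1183 of 1249 entries matched) and the 10 classes by symbol were chosen with earlier results of these data known. Named genes are the 12 highest and 12 lowest protein-coding genes by the interval bound nearest to 1, 5 and 5 of other types, up to 4 apart members per list by size (or a defining member where none was apart), up to 8 genes a direction apart alike in both exosome comparisons, and up to 4 a side apart in opposite directions. Named beyond this rule, after their values were seen, are the host pairs, the start-site genes and the further list members given as examples. Alternatives were other scalings, filters, fold and prior, thinning of the deeper library and trend removal. Some genes and sequences are not reported here.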

Additional observations from a re-analysis of the deposited data

Results flagged for a closer look

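Several genes moved in opposite directions in the 2 exosome comparisons, a difference that was not tested because each condition has 1 library. The histone genes HIST1H2BC (log2 ratio 2.43 in acetaminophen with exosomes over acetaminophen, -1.22 in exosomes over control) and HIST1H2BD (3.30 and -1.16) and the 7SL copies RN7SL521P (3.66 and -2.33) and RN7SL118P (4.16 and -2.43) were higher with the drug present and lower without it. ADAL (-2.35 and 5.47), the nucleoporin gene RANBP2 (-1.38 and 1.54), the chromatin remodeller gene SMARCA5 (-1.33 and 1.26) and the phosphatase-family gene MTMR10 (-1.85 and 2.95) were lower with the drug present and higher without it. With the trends removed, RANBP2 and SMARCA5 were no longer apart in the first comparison (-0.65 and -0.53). RN7SL118P had 0 counts with acetaminophen alone and ADAL had 0 in the control, so the first log2 ratio of RN7SL118P and the second of ADAL depend on the prior counts; RN7SL521P had 25 and 3 counts (ratio 15.1, interval 4.61 to 78.1).

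Entries without a unique alignment, which enter no gene count, made up 53.3% of all counted entries with exosomes added, above the control at 46.8%. What they hold was not analysed here.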

How the results depend on the processing

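The counts of genes apart, 1855 higher and 1647 lower, stayed within 1.5 times under other scalings, filters, prior counts and thinning, except as follows. At 4-fold there were 954 higher and 270 lower, and with GC and length trends removed 798 lower (1398 higher). Without the filter 63.0% of the calls were higher (2139 and 1255), against 52.97%. DESeq2 size factors shifted all log2 ratios by a median of 0.10, and trend removal by 0.13. Of the main calls, 1026 higher and 512 lower remained with trends removed, and 0 genes were apart in the opposite direction under any of the 9 alternatives. The C/D box median moved to -1.04 with trends removed, and the cause was not tested. Short RNAs were among the genes fitted, so their trend-removed values are not an independent check. Of 220 named genes run under both other scalings and trend removal, and 154 under scaling on coding genes, 99 left their counting interval with trends removed and 7 with DESeq2 size factors, and 1 apart gene changed sign, SDF2L1, at -0.13 with trends removed. List medians differed by more than 1.5-fold from the main value in 12 of 52 lists under trend removal, 6 of 52 with 2 prior counts, 6 of 47 with at least 10 counts and 0 under other scalings and thinning; 12 changed sign under trend removal, 0 of them from 1 or beyond. No paired analysis was possible because each condition has 1 library and the labels carry no replicate numbers. Depth limits genes below about 3.82 CPM.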
